A study of Drosophila melanogaster with 2 samples.

Results

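The cytosolic ribosomal protein genes of Drosophila melanogaster were followed in single hemocytes, the blood cells of the larva. Members were chosen by symbol (RpL or RpS followed by a digit, RpLP0, RpLP1, RpLP2 or sta), which gave 92 genes out of 17612 in the count tables, 39 of the small and 53 of the large subunit. Attached p35;RasV12 and attached RasV12 hemocytes had been picked by hand from the surface of salivary glands, from 10 pairs of glands per genotype, while circulating p35;RasV12, RasV12 and w1118 hemocytes came from larvae that were bled and whose cells were sorted into wells. In the tumor larvae a BeadexMS1096-Gal4 line drives UAS-RasV12, an always active Ras, in the gland, and in p35;RasV12 larvae also p35, an inhibitor of effector caspases, whereas w1118 larvae are the group without a tumor. The title of the set of circulating cells names w1118 together with BeadexMS1096-Gal4, so by this label w1118 larvae carried the driver as well. Per the study, cells of both locations had been chosen for Eater, a marker of plasmatocytes. Each group was 1 pool of animals or glands, so no difference has a replicate check and no test was run. The genotypes are those of the deposited annotation, since each of the 2 sets of cells carries the title of a single genotype. Attached and circulating cells were also isolated, amplified and sequenced in different ways, and these steps cannot be told apart from location.

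Cytosolic ribosomes are built from ribosomal RNA and a fixed set of proteins, most of them present in a single copy per ribosome. In flies many of these genes are known as Minute loci, where loss of a copy slows growth and bristle formation. Their transcripts are short, abundant and usually kept at similar levels to each other, and some members have paralogs that are used mainly in the germline.

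After cells with over 10% mitochondrial reads or under 200 genes were left out, 19 attached p35;RasV12, 40 attached RasV12, 124 circulating p35;RasV12, 126 circulating RasV12 and 125 circulating w1118 cells remained. Depth ran from 261607 to 58927908 reads in attached cells and from 2129 to 1149704 reads in circulating cells, with group medians of 582056 to 637375 reads in circulation, so that levels rest on more reads in attached cells but on fewer cells. None of the 8 plasmatocyte markers was at 0 in any group, though all 8 were lower in attached than in circulating cells of the same genotype. For each group the reads of its cells were added up and given per 1000000 reads (CPM), and intervals at 95% cover counting error only, since copies of a cDNA made by PCR are not independent. Of the 92 members, 83 had a mean of at least 50 CPM over the groups in every comparison and 9 in none. A cell held reads of a median of 83 or 84 members in each group. In both attached groups 83 members were read in every cell, and in the circulating groups 56 to 80 were. A CPM level is a share of RNA, so that fewer transcripts of these genes and more of others cannot be told apart.

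The share of reads on ribosomal protein genes was highest in circulating p35;RasV12 cells and lowest in attached p35;RasV12 cells. The members together held 8.04% of reads in attached p35;RasV12 cells, 11.9% in attached RasV12 cells, 15.8% in circulating p35;RasV12 cells, 14.0% in circulating RasV12 cells and 11.9% in circulating w1118 cells. As sums these were 80420, 118902, 158107, 140307 and 118981 CPM in the same order. The counting intervals of attached RasV12 (118873 to 118932 CPM) and circulating w1118 (118905 to 119057 CPM) overlapped, so those neighbours in the order did not differ beyond counting error. The order rests on totals. With TMM factors in their place, attached RasV12 cells were log2 0.12 above circulating RasV12 cells. Circulating p35;RasV12 cells were then 0.071 above circulating RasV12 cells, so attached RasV12 cells came out highest. Single cells spread far more widely than the counting error. The median cell had 7.80% in attached p35;RasV12 (range 4.68% to 18.0%), 11.8% in attached RasV12 (2.54% to 18.9%), 15.8% in circulating p35;RasV12 (4.00% to 28.9%), 14.1% in circulating RasV12 (6.97% to 24.3%) and 11.3% in circulating w1118 (6.83% to 32.1%). All groups overlapped. On the gland 2 of 19 cells with p35 and 22 of 40 without it passed the median of w1118, and in circulation 112 of 124 and 97 of 126 cells of these genotypes did.

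**Figure D1:**
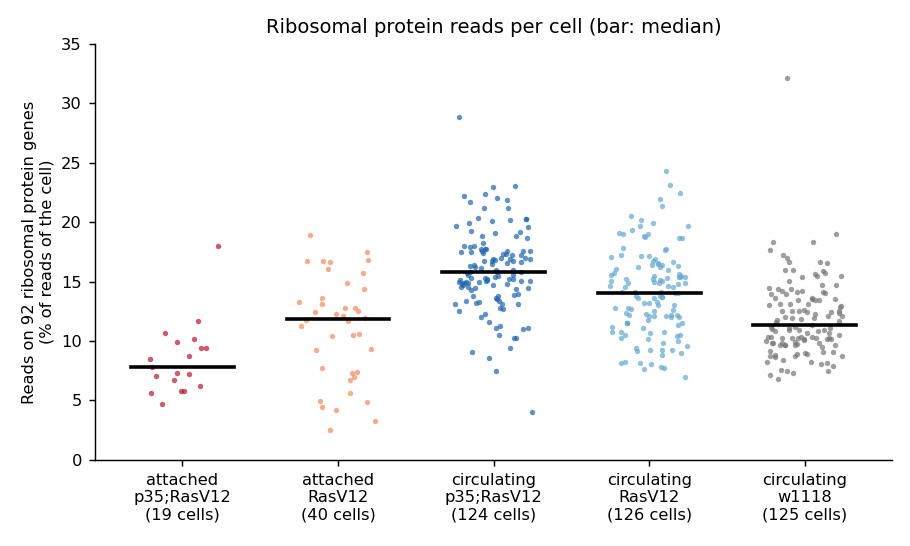
Percent of the reads of a cell that lie on the 92 ribosomal protein genes (vertical axis), 1 point per cell, in the 5 groups (horizontal axis), with the median as a bar. The bar is at 7.80% in attached p35;RasV12 and at 15.8% in circulating p35;RasV12 cells, and the ranges of all groups overlap.

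The subunits went together. Large subunit members held 1.59 times as many reads as small subunit members in attached p35;RasV12, 1.47 times in attached RasV12, 1.54 times in circulating p35;RasV12 and 1.48 times in circulating w1118 cells. Compared per kilobase of exon, RpL27A, RpLP2, RpL15 and RpS27A were among the highest levels over the 5 groups. RpL27A (FBgn0285948, chromosome 2L from 4457186 to 4458364 in Dm6), a large subunit protein, was at 4811 and 3987 CPM per kb in the 2 attached groups, with p35 and without, and at 3695, 3169 and 2789 CPM per kb in the circulating groups in the order above. It was the highest member in the attached groups and did not follow the order of the family. RpLP2, which with RpLP1 and RpLP0 forms the stalk that binds translation factors, was at 3053, 3596, 4184, 3816 and 3365 CPM per kb in the same order of groups, and so followed it. RpS27A, made as a fusion with ubiquitin, was at 1908, 2962, 4268, 3752 and 3404 CPM per kb, and RpL40, the other ubiquitin fusion, at 2073, 2545, 3172, 2679 and 2388 CPM per kb. The lowest members with a read in every group were RpS19b, RpS15Ab, RpL24-like, RpS10b and RpL34a, each of them in a set of paralogs. Length here is that of all exons of all isoforms, which lowers genes with long minor isoforms.

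The first question of the design is how circulating hemocytes differ with a tumor in the larva. In circulating RasV12 against circulating w1118 cells, the sum over the family was 1.18 times as high (log2 0.24) and all 83 members that passed the filter were above 0. This direction held for 78 of the 82 members tested when TMM factors were used in place of totals. The median member was at log2 0.22 and the quartiles lay close together, at 0.19 and 0.26. Over all 3034 genes tested 54.1% were above 0. Their median was 0.03 with quartiles of -0.19 and 0.27, so the median member lay at percentile 70.5. Past 1.5-fold was 1 member (1.20% of 83), against 9.06% of all genes higher and 6.06% lower. That member was RpL24-like (FBgn0037899, chromosome 3R from 11430740 to 11431582), whose counterpart in yeast, Rlp24, acts in the assembly of the large subunit rather than in the finished ribosome. It was at 156 CPM in circulating RasV12 and 102 CPM in circulating w1118 cells (log2 0.61). It was followed by RpL15 (3362 against 2455 CPM, log2 0.45), sta, the protein RpSA of the small subunit (3446 against 2633 CPM, 0.39), RpL8 (0.36) and RpLP0 (0.35). The 5 lowest ratios, from 0.03 to 0.12, belonged to RpL39, RpL38, RpL41, RpL29 and RpS29, all of them very short proteins.

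In circulating p35;RasV12 against circulating w1118 cells the family was 1.33 times as high (log2 0.41) and again all 83 members were above 0, or 82 of 83 with TMM factors. The median member was at 0.41, the quartiles at 0.37 and 0.46, and over all 3134 genes the median was 0.07 with quartiles of -0.28 and 0.44. Of these 3134 genes, 55.5% were above 0. At least 1.5-fold higher were 4 members (4.82% of 83), against 19% of all genes, and none was 1.5-fold lower, against 13.1% of all genes. RpL24-like was at 221 CPM in circulating p35;RasV12 and 102 CPM in w1118 cells (log2 1.11) and RpL15 at 4283 and 2455 CPM (0.80). RpS15Ab (0.66) and RpS20 (1555 against 1021 CPM, 0.61) were the others, and sta came next (0.58). The lowest ratio was that of RpS3A, a small subunit protein, with 3367 CPM in circulating p35;RasV12 and 3158 CPM in w1118 cells (0.09), and RpS2 (0.22), RpL7A and RpLP2 (0.31 each) were also low.

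The direct comparison of circulating p35;RasV12 with circulating RasV12 cells asks what p35 adds in the gland. Here the family was 1.13 times as high (log2 0.17), 81 of 83 members were above 0 (74 of 83 with TMM factors), and none was past 1.5-fold, against 6.83% of all 3238 genes higher and 5.34% lower. Of these 3238 genes, 54.0% were above 0. For 81 members the level was highest with p35, next in RasV12 and lowest in w1118 cells. The exceptions were RpS3A (3367 against 3532 CPM, log2 -0.07) and RpS2 (3042 against 3108 CPM, -0.03). The largest ratios were those of RpL39 (857 against 588 CPM, 0.54), RpL24-like (0.50), RpS15Ab (0.45), RpL29 (0.44) and RpL41 (888 against 658 CPM, 0.43). RpL39, RpL29 and RpL41, among the lowest ratios in RasV12 against w1118 cells, were thus among the highest here. The 2 comparisons share the RasV12 cells. Other markers moved with the circulating levels. The 12 markers of dividing cells summed to 1884, 1307 and 501 CPM in circulating p35;RasV12, RasV12 and w1118 cells, and the 8 plasmatocyte markers to 31683, 25434 and 16856 CPM. Of these 8, 7 were above 0 in each circulating comparison, while srp went the other way, at 544, 711 and 1071 CPM in the same order. The part of these markers in the differences was not tested.

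**Figure D2:**
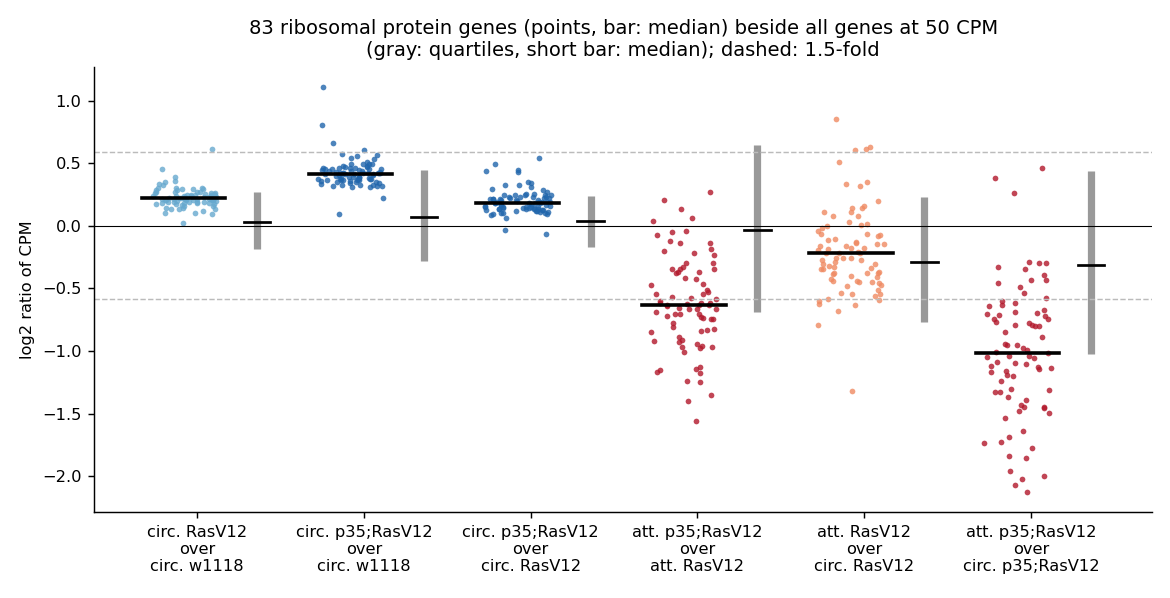
Log2 ratio of CPM (vertical axis) in the 6 comparisons (horizontal axis), 1 point for each of the 83 members that passed the filter, with their median as a bar, beside the quartiles (gray) and median (short bar) of all genes tested; dashed lines mark 1.5-fold. Members lie in a narrow band in circulation, with medians of 0.22, 0.41 and 0.19 (0.11, 0.20 and 0.084 with TMM factors), and are spread out in the comparisons with attached cells, whose medians of -0.63, -0.22 and -1.02 move to -0.33, 0.14 and -0.25 with TMM factors.

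Among attached cells the family was lower with p35. Attached p35;RasV12 cells held 0.676 times the share of attached RasV12 cells (log2 -0.56), with 78 of 83 members below 0 and a median of -0.63. Of all 2752 genes tested, 48.8% were above 0. With TMM factors, which shift every gene by 0.31, the sum was -0.26 and 66 of 83 members were below 0. At least 1.5-fold lower were 48 members (57.8% of 83), against 28.4% of all 2752 genes, and none was 1.5-fold higher, against 26.9%. The mean over cells, in which every cell has the same weight, gave 24 of 83 lower members, against 21.2% of all genes. TMM factors gave 19 of 83, against 18.1% of all genes. The lowest ratios were those of sta (967 CPM in attached p35;RasV12 against 2849 CPM in attached RasV12 cells, log2 -1.56), RpL7A (540 against 1421 CPM, -1.40), RpL4 (862 against 2206 CPM, -1.36), RpL3 (936 against 2228 CPM, -1.25) and RpL11 (394 against 929 CPM, -1.24). RpL3 and RpL4 are the largest proteins of the large subunit by coding length here, and RpL11 is a partner of the 5S RNA together with RpL5 (1544 against 3023 CPM, -0.97). Above 0 were RpL27A (3046 against 2524 CPM, 0.27), RpL39 (1029 against 894 CPM, 0.20), RpL15 (3408 against 3107 CPM, 0.13), RpL35A (0.07) and RpL13A (0.03). RpS6, the substrate of S6 kinase, was at 808 and 1418 CPM (-0.81).

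For 76 of the 83 members p35;RasV12 was above RasV12 in circulation and below it on the gland. This joint count rests on totals and was not made over all genes. Of all genes tested, 54.0% were above 0 in the circulating and 48.8% in the attached comparison. Markers of other tissues moved with these comparisons. The 8 fat body markers summed to 47019 CPM in attached p35;RasV12 and 24078 CPM in attached RasV12 cells, and to between 48.5 and 73.8 CPM in the circulating groups. The 10 salivary gland markers summed to 21113 and 32112 CPM in attached p35;RasV12 and RasV12 cells and stayed under 1 CPM in circulation. The 8 plasmatocyte markers summed to 11057 and 10688 CPM in attached p35;RasV12 and RasV12 cells, against 31683 and 25434 CPM in circulating cells of these genotypes. All 8 were at least 1.5-fold lower on the gland in both genotypes, against 40% and 33.6% of all genes. The 5 crystal cell markers summed to 15918 CPM in attached p35;RasV12 and 511 CPM in attached RasV12 cells. Over 1% of reads lay on crystal cell markers in 4 of the 19 attached p35;RasV12 cells, whose ribosomal protein reads were 4.68% to 9.38%, against 5.77% to 18.0% in the other 15. Without them the sum was at log2 -0.48 and 36 members were 1.5-fold lower, against 29.7% of all genes. Taking gland and fat body markers out of the totals left the sum at -0.55 with 47 lower members, against 27.8% of all genes. The rest of their part in the difference was not tested.

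Between locations, attached RasV12 against circulating RasV12 cells gave a sum of log2 -0.24, and 64 of 83 members were below 0. This direction was reversed with TMM factors, where the sum was 0.12 and 55 of 83 members were above 0, and the median member (-0.22) lay near that of all 2966 genes (-0.29), at percentile 53.5. With totals, only 35.4% of these 2966 genes were above 0. At least 1.5-fold higher were 4 members (4.82%, against 15.4% of all genes) and 1.5-fold lower were 7 (8.43%, against 33.6%). Without the cell with most member reads in each group, which held 14.8% of those of attached RasV12 cells, these counts were 2 and 15. The shares over all genes were then 15.8% and 35.8%. The higher ones were RpL38 (2119 CPM in attached against 1176 CPM in circulating RasV12 cells, log2 0.85), RpS21 (0.63), RpS27 (1244 against 812 CPM, 0.61) and RpL39 (0.60), and RpL41 came next (0.51). The lowest were RpS14b (123 against 306 CPM, -1.32), RpL9 (-0.79), RpL3 (-0.68), RpL4 (-0.63) and RpL35A (-0.62).

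In attached p35;RasV12 against circulating p35;RasV12 cells the sum was 0.509 times as high (log2 -0.98) and 80 of 83 members were below 0, where TMM factors gave -0.21 and 56 of 83 members. The median member was at -1.02, against -0.31 for all 3043 genes, at percentile 25.2. Of these 3043 genes, 38.9% were above 0 with totals. TMM factors shift every gene by 0.77 here. At least 1.5-fold lower were 68 members (81.9%, against 40% of all genes), and none was 1.5-fold higher, against 21.2%. With TMM factors 21 were lower and 3 higher, against 14.4% and 48.2% of all genes. RpL4 was at 862 CPM in attached and 3758 CPM in circulating p35;RasV12 cells (-2.12), and RpL3, sta, RpL7A and RpL11 followed, from -2.07 to -1.96. Only RpL38 (2046 against 1490 CPM, 0.46), RpL27A (3046 against 2339 CPM, 0.38) and RpL39 (1029 against 857 CPM, 0.26) were above 0. These 3 members were also the only ones above 0 at both genotypes between locations when totals were used. RpL41 (-0.29) and RpS28b (-0.30) were next.

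Across members, the ratio went with coding length, a property that the symbols did not choose. The 83 members ran from RpL41, with 75 coding bases, to RpL3, with 1248. Spearman correlations across members (n = 83) were 0.62 for circulating RasV12 over w1118, -0.17 for circulating p35;RasV12 over w1118, -0.60 for circulating p35;RasV12 over RasV12, -0.30 for attached p35;RasV12 over RasV12, -0.64 for attached over circulating RasV12 and -0.47 for attached over circulating p35;RasV12 cells. They describe these libraries, since all members share the same pools. Across all genes tested the same values were 0.04, 0.06, 0.06, 0.02, -0.33 and -0.27. Over all genes the values were thus close to 0 within a location and negative between locations. With the length of the canonical transcript in place of the coding length, the values across members were 0.36, -0.13, -0.41, -0.33, -0.41 and -0.35, of the same signs and weaker in all but attached p35;RasV12 over RasV12 cells. The 18 members of up to 360 coding bases had a median log2 ratio of 0.05 in attached over circulating RasV12 cells, against -0.48 for the 16 members of over 720 bases. In attached over circulating p35;RasV12 cells these medians were -0.60 and -1.50. In circulation the short and long members were at 0.18 and 0.27 in RasV12 over w1118 cells, at 0.44 and 0.41 in p35;RasV12 over w1118 cells, and at 0.26 and 0.12 between the tumor genotypes, with p35 over without. As a share of the family, members of over 720 bases took 22.1% of the reads in attached p35;RasV12 and 27.3% in attached RasV12 cells, against 30.6% to 31.9% in the circulating groups. With the family sum as the base, 82 or all 83 members stayed within 1.5-fold in the circulating comparisons, and 70, 76 and 63 did so in attached p35;RasV12 over RasV12 and in attached over circulating RasV12 and p35;RasV12 cells. No such count was made over all genes, so these numbers are not set against other genes.

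**Figure D3:**
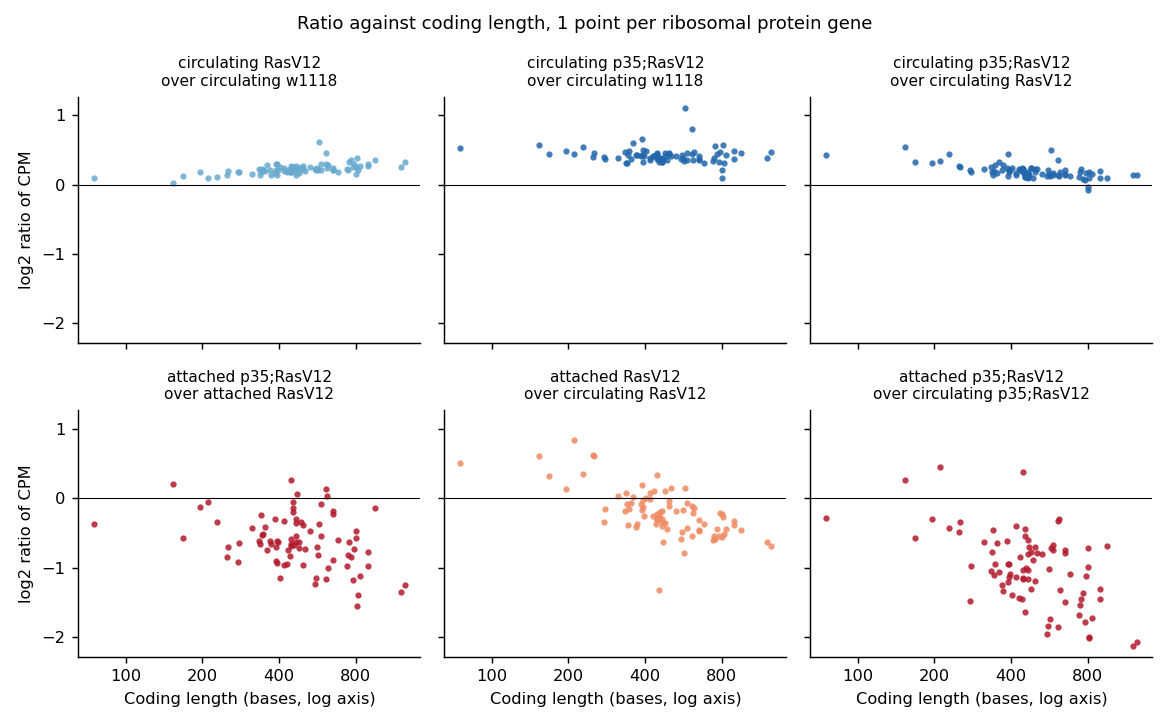
Log2 ratio of CPM (vertical axis) against coding length in bases (horizontal log axis), 1 point for each of 83 ribosomal protein genes, in the 6 comparisons. The points fall from left to right in attached over circulating RasV12 cells (Spearman -0.64) and are nearly flat in circulating p35;RasV12 over w1118 cells (-0.17).

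Of the 92 members, 25 belonged to 12 sets of paralogs. The authors' counting leaves out reads that align in several places or lie on exons of several genes, so reads of near identical copies are uncertain, and 31 members share exon bases with another gene, without use of strand. RpS14a and RpS14b, neighbours on chromosome X (7933742 to 7934677 and 7934898 to 7935792) with coding sequences of 453 bases each, were both used. RpS14b held 9.77% of the reads of the pair in attached p35;RasV12 and 10.8% in attached RasV12 cells, and 19.5% to 20.0% in the circulating groups. The share was thus alike across genotypes and lower on the gland, where reads were longer and came from both ends. RpL34a held 33.1% and 27.5% of the reads of its pair with RpL34b in these attached groups, and between 34.6% and 36.5% in circulation. RpS15Ab held 7.34% and 6.42% of its pair with RpS15Aa in the same attached groups, and 5.07% to 6.24% in circulation. RpL24-like took 14.8% of the reads of RpL24 and RpL24-like in circulating p35;RasV12 cells, 11.7% in RasV12 and 9.31% in w1118 cells, while both attached groups were at 13.7% to 14.3%.

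In 8 sets a single member held nearly all reads, and the 9 members under the filter were all the lesser paralogs of such sets. RpL10Aa and RpS10a had no read in any of 434 cells, which allows a share of up to 0.691% of cells with a read. RpL7-like, RpS28a, RpL37-2 and RpL22-like had 2, 4, 5 and 8 reads in all, and RpS28-like had 24. RpS19b (FBgn0039129, chromosome 3R from 23932729 to 23933530), known from the fly germline, was the strongest of the 9. It was at 0.0594 CPM in attached p35;RasV12 and 5.44 CPM in attached RasV12 cells, where 1 cell held 41.0% of its reads, and at 6.29, 6.13 and 17.8 CPM in circulating p35;RasV12, RasV12 and w1118 cells. A read was found in 25.0% of circulating p35;RasV12 cells (exact 95% interval 17.7% to 33.6%), 25.4% of RasV12 cells (18.1% to 33.9%) and 42.4% of w1118 cells (33.6% to 51.6%). After every cell was thinned to 420000 reads, which left out the shallower cells, these shares were 24.8%, 27.3% and 42.3%. These intervals cover the counting of cells in 1 pool per genotype and do not compare the genotypes.

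Within a group, members went up and down together. The Spearman correlation of a member with the sum of the others, over the cells of a group, had a median over members of 0.70 in the 19 attached p35;RasV12 cells, 0.87 in the 40 attached RasV12 cells, and 0.75 to 0.82 in the circulating groups. All members in a cell share its total, which ties their values to each other. The value was above 0 for every member except RpS15Ab in circulating p35;RasV12 cells (-0.04). RpL27A had the lowest correlation in attached RasV12 cells (0.16) and RpL8 in attached p35;RasV12 cells (0.11). The coefficient of variation over cells of members between 500 and 5000 CPM had a median of 48.5% in attached p35;RasV12, 47.2% in attached RasV12, and 28.9% to 33.2% in the circulating groups. Other genes in that band had 66.5% and 76.6% on the gland and 42.8% to 48.9% in circulation, so that members varied less than other genes of like level in each group. RpL41, the shortest member, had the largest variation in circulating p35;RasV12 (113%) and w1118 cells (94.7%).

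The share of member reads also differed between the clusters of the deposited annotation, which were made from the same cells and are given as a description. The median was 7.03% in attached cluster 0 (27 cells) and 12.0% in attached cluster 1 (32 cells). Within attached cluster 0 the medians of p35;RasV12 and RasV12 cells were both 7.03% (11 and 16 cells), and within cluster 1 they were 9.07% and 12.8% (8 and 24 cells). In circulation the median was highest in cluster 0 (15.9%, 158 cells) and lowest in cluster 1 (9.92%, 84 cells). Circulating cluster 0 held 93 of 124 p35;RasV12, 57 of 126 RasV12 and 8 of 125 w1118 cells, with medians of 16.3%, 15.5% and 14.1%. Cluster 1 held no p35;RasV12 cell, 32 RasV12 and 52 w1118 cells, with medians of 9.73% and 10.1%. Within circulating clusters 0 and 1 the genotypes were closer to each other than over all cells. The order of genotypes was not the same in every cluster. In cluster 2 the medians of p35;RasV12, RasV12 and w1118 cells were 15.0%, 14.3% and 15.9% (29, 20 and 3 cells). In cluster 4 they were 11.9%, 15.2% and 13.6% (2, 16 and 20 cells).

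Cells rich in markers of other cell types had fewer member reads in some groups and not in others. The 5 circulating p35;RasV12 cells with over 1% of reads on 5 lamellocyte markers, which mark flat cells that wrap foreign bodies, had 4.00% to 11.1% on members, with a median of 9.39%, against a median of 15.96% in the other 119 cells. Over 1% on fat body markers was seen in 15 of 19 attached p35;RasV12 cells, with a median of 7.19% on members against 9.40% in the other 4. In attached RasV12 it was seen in 20 of 40 cells, with 9.30% against 13.03%. Over cells, the member share and the fat body marker share, which have the same total, had Spearman correlations of -0.48 in attached p35;RasV12 (n = 19) and -0.54 in attached RasV12 cells (n = 40). For salivary gland markers they were 0.22 and -0.29, and for lamellocyte markers 0.48 and 0.63, against -0.13, -0.44 and -0.17 in the circulating groups. The lamellocyte values rest mostly on mys, which held 383 of 438 CPM in attached p35;RasV12 and 848 of 923 CPM in attached RasV12 cells. It also held 329 of 428 CPM in circulating RasV12 and 407 of 496 CPM in w1118 cells, and 445 of 1226 CPM in circulating p35;RasV12 cells. In both attached groups atilla, ItgaPS4 and PPO3 were at 5.38 CPM or less. The 7 attached p35;RasV12 cells with over 1% on gland markers had a median of 7.80% on members, against 7.74% in the other 12, and the 2 circulating cells of that genotype with over 1% on crystal cell markers had a median of 18.6%, against a median of 15.8% in the other 122. The attached RasV12 cell with the lowest member share (2.54%) had 32.6% of its reads on gland markers and 6.79% on fat body markers. The highest circulating p35;RasV12 cell (28.9%) rests on 6981 reads.

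**Figure D4:**
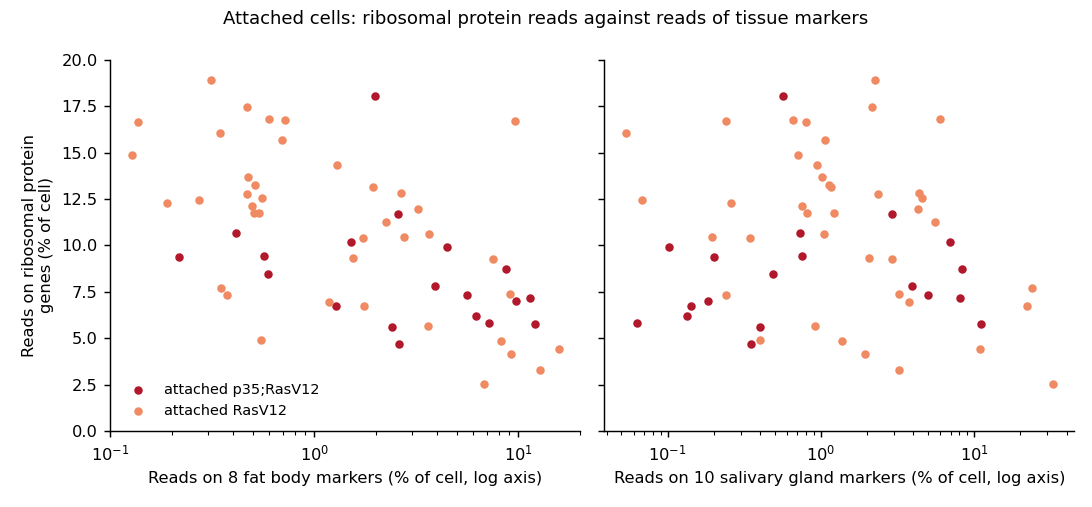
Percent of reads on the 92 ribosomal protein genes (vertical axis) against percent of reads on 8 fat body or 10 salivary gland markers (horizontal log axes), 1 point per attached p35;RasV12 or attached RasV12 cell. Cells with more fat body reads lie lower (Spearman -0.48 and -0.54), and for gland markers the values are 0.22 and -0.29.

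RpS3A (FBgn0017545, chromosome 4 from 65225 to 67207 in Dm6) is the only member on the small chromosome 4, which has 112 genes in the files. It was looked at cell by cell after its values were seen. RpS3A was nearly missing in a few circulating cells, and in those cells so were the other 111 genes of the chromosome. In 10 of 375 circulating cells the other genes of chromosome 4 summed to 4.62 to 18.5 CPM with reads on 3 to 6 genes, whereas every other cell had at least 1879 CPM. That lowest value came from a circulating p35;RasV12 cell of only 2129 reads, with reads on 4 of these genes. The 10 cells were 5 of 124 p35;RasV12, 4 of 126 RasV12 and 1 of 125 w1118 cells, and none of the 59 attached cells. RpS3A was at 0 to 386 CPM in the 10 cells, with a median of 68.9 CPM, while the median was 3416, 3580 and 3080 CPM in the other cells of these groups, in the same order. The 10 cells had 378446 to 668523 reads each and 10.3% to 17.1% of reads on all members. One more cell, from w1118, had little RpS3A (111 CPM) but 6281 CPM on the other genes of chromosome 4.

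**Figure D5:**
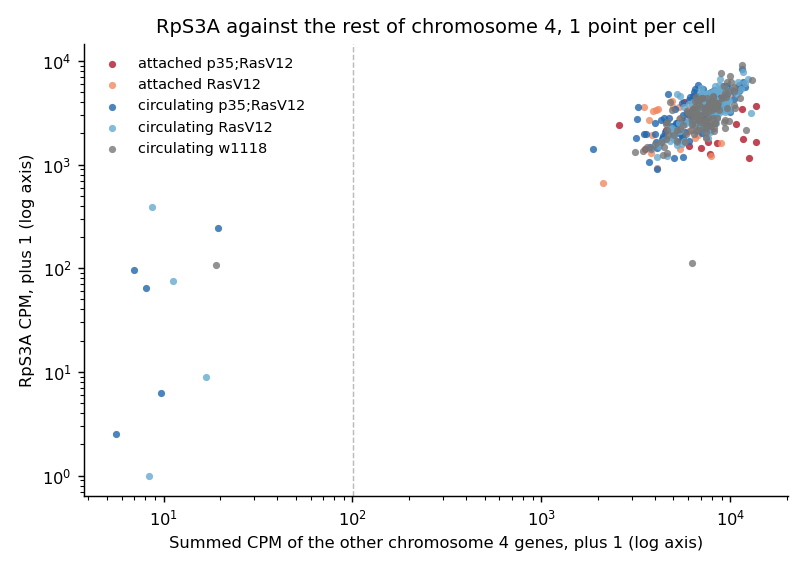
CPM of RpS3A plus 1 (vertical log axis) against the summed CPM plus 1 of the 111 other genes on chromosome 4 (horizontal log axis), 1 point per cell in the 5 groups, with a dashed line at 100 CPM. The 10 circulating cells left of the line have at most 386 CPM of RpS3A, and no attached cell lies there.

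In these cells the share of reads on the other chromosome arms stayed between 75.2% (X) and 136% (2R) of the median of their group, and that of chromosome 4 was between 0.06% and 3.45%. Of the 82 members on other chromosomes, 6 were at least 1.5-fold below the group median by their median over the 10 cells and 2 above, against 23.7% and 23.6% of all 2930 genes off chromosome 4. The 6 were 18.2% of the 33 small subunit members off chromosome 4, against the 23.7% of all genes, and no large subunit member was among them. RpS12 was at 46.6% of its group median (30.5% to 102% over the cells), RpS9 at 46.6% (24.6% to 90.8%), sta at 51.0% (27.2% to 145%), RpS2 at 51.8% (34.8% to 95.3%), RpS20 at 60.1% (26.1% to 99.3%) and RpS15Ab at 66.5% (3.22% to 292%). The 2 above were RpL39 (157%) and RpS21 (151%). Without the 10 cells, RpS3A was at log2 0.19 in circulating RasV12 over w1118 cells, 0.14 in p35;RasV12 over w1118 cells and -0.05 in p35;RasV12 over RasV12 cells. Its ratio of p35;RasV12 over w1118 cells stayed below that of the median member (0.41).

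Other genes of translation, from lists taken with the results in view, were set beside the ribosomal proteins. Of 20 tested genes of ribosome assembly, all were above 0 in circulating RasV12 over w1118 cells and 7 were at least 1.5-fold higher, with a median of log2 0.49, against 9.06% of all genes higher and a median of 0.03. In circulating p35;RasV12 over w1118 cells all 21 tested were above 0 and 12 were 1.5-fold higher, with a median of 0.67, against 19% of all genes and a median of 0.07. Non1, known as a nucleolar GTPase of large subunit assembly, was at 1407, 787 and 357 CPM in circulating p35;RasV12, RasV12 and w1118 cells. Myc, a transcription factor known to raise ribosome synthesis in flies, was at 159, 122 and 57.8 CPM in these cells. Among 9 tested elongation factors and related genes the medians were 0.19 and 0.30 in the same comparisons, and among 23 initiation factors 0.13 and 0.20. In attached p35;RasV12 over attached RasV12 cells the medians were -0.31 for elongation, -0.46 for initiation and -0.02 for 13 tested assembly genes. These were 13 of 26 assembly genes found, whose reads summed to 2437 against 2407 CPM (log2 0.02). Some, such as pit (201 against 46.2 CPM) and nop5 (32.6 against 99.9 CPM), passed the filter only through 1 group. Their median therefore does not stand for the list either. Of the 13 assembly genes, 6 were above 0, among them Myc, at 153 and 70.4 CPM in these attached groups (log2 1.12). Others, such as nop5 (-1.61) and bys (-1.22), were below 0, as was the sum of the ribosomal protein genes (-0.56). Rack1, a protein bound to the small subunit, was at 1125 and 2059 CPM in attached p35;RasV12 and RasV12 cells. Of 73 genes of the mitochondrial ribosome only 8 to 20 passed the filter. Of the 18 tested in circulating RasV12 over w1118 cells, 14 were above 0, with a median of 0.24. In attached p35;RasV12 over RasV12 cells 6 of 8 were above 0, with a median of 0.66. The reads of all 73 went the other way, with a sum of 1896 against 2248 CPM (log2 -0.25). Genes such as mRpS30 (70.9 against 31.0 CPM) and mRpL38 (20.0 against 85.1 CPM) passed the filter only through 1 of the groups. The median of the 8 therefore does not stand for the list.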

How the data were processed

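Smart-seq2 libraries without molecular identifiers were made from single circulating hemocytes, sorted by flow cytometry and read from 1 end, and from single hemocytes picked from salivary glands and read from both ends. Per the labels and the study's methods, the authors aligned reads with STAR 2.7.2 to Dm6 and deposited raw counts per gene from featureCounts 2.0.0 with annotation r6.37. Multi-mapping reads were left out and strand was not used. Genotypes and clusters were taken from the deposited annotation, and wells without a study group entered no comparison.

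A cell was left out above 10% mitochondrial reads or under 200 genes. Group levels are added counts per 1000000 counts of the group (CPM). With 1 pool per group, a member was called higher or lower at 1.5-fold among genes with a mean of at least 50 CPM, with no p-value. Named genes were the 5 highest and 5 lowest ratios per comparison, the 5 highest and 5 lowest levels per kilobase and members with a known role. A few members that this rule names are not reported here. Members and lists were chosen with earlier results of these data known. Alternatives were TMM factors (edgeR 4.0.16, R 4.3.3), mean and median over cells, other totals and other filters. Chromosome 4, cells rich in crystal cell markers and cells under 420000 reads were looked at after seeing the data. Computations used Python 3.11.15, numpy 2.4.6, pandas 2.3.3 and scipy 1.17.1 and were tested on simulated data.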

Additional observations from a re-analysis of the deposited data

Results flagged for a closer look

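The summed reads of ribosomal protein genes moved in opposite directions with p35 at the 2 locations. In attached p35;RasV12 over attached RasV12 cells the log2 ratio was -0.56, and in circulating p35;RasV12 over circulating RasV12 cells it was 0.17. The difference between the locations was not tested, since each group is 1 pool.

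Wells named Ras_C, p35Ras_C and w1118_C in the attached set, names that the labels do not explain, were in no comparison. Pooled, 20.8% of reads lay on ribosomal protein genes in the 5 wells named Ras_C, 18.2% in the 4 named p35Ras_C and 10.9% in the 8 named w1118_C.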

How the results depend on the processing

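Values are log2 ratios of the summed ribosomal protein reads unless a count is named, and counts are of members at least 1.5-fold higher or lower. The direction of the sum held under every alternative tried in 5 of the 6 comparisons, and in attached over circulating RasV12 cells under every alternative except TMM factors.

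In circulating RasV12 over w1118 cells the sum was 0.13 with TMM factors, 0.24 as the mean over cells, 0.31 as the median over cells, and 0.24 with no filter on cells, with mitochondrial and rRNA genes out of the total, or without cells under 420000 reads. The count higher was 0 with TMM factors or the mean over cells, against 5.98% and 8.68% of all genes. With no filter on low genes 2 were higher and 1 lower, against 26.6% and 15.9% of all genes.

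In circulating p35;RasV12 over w1118 cells it was 0.20 with TMM factors, 0.48 as the median over cells, 0.42 without cells under 420000 reads, and 0.41 as the mean over cells, without the cell with most member reads, with no filter on cells, or with mitochondrial and rRNA genes out of the total. The count higher was 2 with TMM factors and 11 as the median over cells, and 1 was lower with no filter on low genes. Of all genes, 12.01% were higher with TMM factors and 17.83% as the median over cells. With no filter on low genes 16.99% of all genes were lower.

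In circulating p35;RasV12 over RasV12 cells it was 0.071 with TMM factors, 0.17 as the median over cells, 0.18 as the mean over cells, 0.18 without the cell with most member reads and 0.18 without cells under 420000 reads. The count higher was 1 as the median over cells or with no filter on low genes, against 7.56% and 27.1% of all genes.

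In attached p35;RasV12 over RasV12 cells it was -0.26 with TMM factors (19 lower), -0.39 as the mean over cells (24 lower), -0.60 as the median, -0.53 without the cell with most member reads, -0.59 with no filter on cells, -0.54 with mitochondrial and rRNA genes out of the total, -0.55 with gland and fat body markers out of it, and -0.48 without cells rich in crystal cell markers. Of all genes, 18.1% were lower with TMM factors and 21.2% as the mean over cells.

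In attached over circulating RasV12 cells it was 0.12 with TMM factors (8 higher, 1 lower), -0.35 as the mean over cells (1 higher, 17 lower), -0.25 as the median (1 higher), -0.29 without the cell with most member reads (2 higher, 15 lower), -0.24 with no filter on cells, -0.23 with mitochondrial and rRNA genes out of the total, -0.16 with gland and fat body markers out of it (3 lower), and -0.23 without cells under 420000 reads. Of all genes, 26.2% were higher and 16.2% lower with TMM factors, and 15.4% and 36.6% as the mean over cells. Without the cell with most member reads these shares were 15.8% and 35.8%. As the median 12.0% of all genes were higher, and 29.2% were lower with gland and fat body markers out of the total.

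In attached over circulating p35;RasV12 cells it was -0.21 with TMM factors (3 higher, 21 lower), -0.92 as the mean over cells, -1.02 as the median, -0.996 without the cell with most member reads, -0.998 with no filter on cells, -0.94 with mitochondrial and rRNA genes out of the total, -0.87 with gland and fat body markers out of it, -0.89 without cells rich in crystal cell markers, and -0.97 without cells under 420000 reads. Of all genes, 48.2% were higher and 14.4% lower with TMM factors. TMM factors shift every gene by -0.11 in circulating RasV12 over w1118, -0.21 in p35;RasV12 over w1118 and -0.10 in p35;RasV12 over RasV12 cells, and by 0.36 in attached over circulating RasV12 cells. Of the shares of cells with a read of the 9 low members, 13 lay outside their exact interval after thinning or at 5 reads, and 77 did not. The cause of these shifts was not tested. No paired analysis was possible because each group is 1 pool.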

Other observations

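By well, the percent of reads on ribosomal protein genes was 14.3 to 23.8 (median 21.0) in wells named Ras_C, 10.7 to 21.9 (median 18.1) in wells named p35Ras_C and 8.28 to 14.6 (median 11.7) in wells named w1118_C. The single attached well without a genotype had 14.3%. The 4 circulating wells without a genotype had 3.21% to 13.05% on 866 to 2500 reads.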
